A study of Mus musculus with 4 samples.

Results

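The S1 segment is the first stretch of the proximal tubule of the kidney, next to the glomerulus. Nuclei of this segment were picked out of single-nucleus RNA sequencing of mouse kidney by counting unique molecular identifiers (UMIs), each of which marks 1 captured transcript. A barcode was taken as an S1 nucleus when Slc5a2, Slc5a12 and Slc6a19 together had at least 5 UMIs and more UMIs than Slc7a13, Cyp7b1, Bcat1 and Slc22a19, which mark the last proximal segment, S3. It also had to hold at most 15000 UMIs, at most 10% of them from mitochondrially encoded genes, and at most 3 UMIs of Flt1, Slc12a1 and Slc12a3, which mark endothelium, thick ascending limb and distal convoluted tubule. In all, 4590 of 39654 barcodes met the rule. They came as 882 and 742 nuclei from untreated libraries 1 and 2, and as 1662 and 1304 nuclei from losartan libraries 1 and 2.

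All 4 libraries were made from kidneys of C57BL/6 mice at postnatal week 22, with no genetic change named. Group 1 received no treatment (2 libraries). Group 2 received losartan (2 libraries), a drug that blocks the type 1 receptor of angiotensin II. Nuclei were freed from flash-frozen kidney and captured on the 10x Genomics Chromium platform. The labels do not say whether the replicates of a group are separate animals, so every p-value below measures the spread between these samples, which may be technical. The labels give no dose, duration or sex.

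Cells of the S1 segment take back most of the filtered glucose, amino acids, phosphate and bicarbonate. Slc5a2 encodes SGLT2, the glucose carrier of the early proximal tubule. Slc5a12 carries lactate with sodium, and Slc6a19 carries neutral amino acids. The segment also takes up filtered protein through the receptors megalin (Lrp2) and cubilin (Cubn), makes glucose and ammonia from amino acids, and burns fatty acids in mitochondria and peroxisomes. Angiotensin II acts on these cells directly through its type 1 receptor, Agtr1a. After injury, proximal cells lose transporter transcripts and gain others such as Havcr1, Vcam1, Itgb6 and Spp1.

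The nuclei were chosen by the measured UMIs of these genes, which are described first, with no test. In plain CPM, the UMIs summed over S1 nuclei of a library and scaled to the same total in every library, Slc5a2 stood at 672 and 704 in untreated and 565 and 562 in losartan libraries. Slc5a12 stood at 3534 and 3424 against 4390 and 4666, and Slc6a19 at 372 and 369 against 556 and 353. The S3 gene Slc7a13 stood at 48.9 and 24.1 against 217 and 163 CPM in the same nuclei, and at 153 CPM on average in nuclei of the thick ascending limb and distal convoluted tubule (at least 5 UMIs of Slc12a1 and Slc12a3, called distal nuclei below), which should lack it. In distal nuclei Slc5a12 stood at 161, 69.6, 387 and 346 CPM. At the edge of the rule, 50, 42, 77 and 67 barcodes had 4 UMIs of the S1 genes and more of them than of the S3 genes. A further 47, 27, 38 and 53 had 5.

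Markers that the rule did not read were used to check the label. Slc34a3, the sodium-phosphate cotransporter NaPi-IIc (chromosome 2, 25228898 to 25234364, GRCm38), averaged 47.9 ± 10.5 CPM in S1 nuclei (SD, n = 4 libraries). Its mean was 2.30 CPM in the mirror-image S3-side nuclei (at least 5 UMIs of the S3 genes and more of them than of the S1 genes), 2.78 in the other proximal nuclei and 4.23 in distal nuclei. Slc7a7, a subunit of the exporter of basic amino acids (chromosome 14, 54369442 to 54417780), averaged 610 ± 146 CPM in S1 nuclei against 62.7, 114 and 55.0 in the same order. Both markers were higher in S1 nuclei in each of the 4 libraries. With every nucleus thinned to 2000 UMIs, Slc34a3 was found in 8.80, 9.70, 12.5 and 10.8% of S1 nuclei, and in 0.407, 0.164, 1.30 and 1.07% of distal nuclei. Thinning left out 30 shallower S1 nuclei of untreated library 1 and 173 distal nuclei of the same library. Before thinning the S1 shares were 17.0, 17.5, 27.1 and 22.4%. Lrp2 and Cubn, which mark the whole proximal tubule, averaged 1418 and 606 CPM in S1 nuclei and 1501 and 657 in S3-side nuclei. The 5 markers of S2, the segment between S1 and S3, summed to 1194, 931, 1235 and 1200 CPM in S1 nuclei. They summed to 739, 440, 1235 and 1028 in S3-side nuclei, and to 1611, 1347, 1783 and 1733 in the other proximal nuclei. The S1 name was kept on these values. No gene of the rule was chosen to mark S2, so S2 nuclei may be among those named S1.

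The promoters of both markers are shown, since these genes set the segment apart in level: Slc34a3 (minus strand, chr2:25234185-25234484) and Slc7a7 (minus strand, chr14:54417895-54418194), from 250 bases before to 50 after the listed start, from RefSeq on GRCm38.p6. The table lists 5 starts for Slc7a7, of which 1 is shown. Promoters were found there for 7 of 9 genes sought. Capitals mark a match to AGAACA, the hexamer bound by steroid receptors such as those for androgen and glucocorticoid, on either strand.
Slc34a3: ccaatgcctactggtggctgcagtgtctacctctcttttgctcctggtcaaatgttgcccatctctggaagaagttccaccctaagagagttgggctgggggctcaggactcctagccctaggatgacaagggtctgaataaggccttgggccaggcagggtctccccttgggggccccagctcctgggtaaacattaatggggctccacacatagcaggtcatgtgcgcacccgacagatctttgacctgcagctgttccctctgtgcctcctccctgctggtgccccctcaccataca
Slc7a7: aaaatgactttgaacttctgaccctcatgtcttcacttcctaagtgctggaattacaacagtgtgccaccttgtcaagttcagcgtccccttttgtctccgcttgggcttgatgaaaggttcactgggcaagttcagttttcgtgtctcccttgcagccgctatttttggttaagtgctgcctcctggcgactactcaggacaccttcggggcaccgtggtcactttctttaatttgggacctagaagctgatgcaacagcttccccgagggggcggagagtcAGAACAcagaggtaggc
The match in Slc7a7 begins 33 bases after the start. Of 32851 promoters of this length, 19.0% hold AGAACA on either strand, 7.10% hold GTTAAT, the core of the hepatocyte nuclear factor 1 site, and 13.6% hold the TATA box letters TATAAA. No window shown has overlapping matches. The Slc34a3 window holds none of the 3 motifs.

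Summed UMIs over S1 nuclei ranged from 4455846 to 9282344, and median UMIs per S1 nucleus were 4394.5 and 5739.5 in untreated and 4851 and 4793.5 in losartan libraries. Mitochondrially encoded transcripts made up 0.0718 and 0.148% of UMIs in the median S1 nucleus of the untreated libraries, and 0.142 and 0.210% in the losartan libraries. Between 21 and 29 barcodes were shared by each pair of libraries, and 0 of them were S1 nuclei in both. Replicates of a group differed beyond the sampling noise of counts (chi-square per degree of freedom 7.41 in untreated and 9.29 in losartan libraries), so none was a copy of another. The Y-linked genes Uty, Ddx3y, Kdm5d and Eif2s3y were found in S1 nuclei of all 4 libraries, between 46.0 and 303 plain CPM.

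S1 nuclei made up a larger share of the losartan libraries. They were 9.66 and 7.78% of kept barcodes in untreated and 17.6 and 13.2% in losartan libraries, with means of 8.72 ± 1.33% and 15.4 ± 3.10% (SD, n = 2 per group). Both losartan libraries lay above both untreated libraries. The difference of 6.71 percentage points had p = 0.333 in an exact two-sided permutation test, the smallest p that 2 against 2 libraries can give. Of all proximal nuclei, S1 nuclei made up 30.1, 28.8, 35.3 and 35.2%. With S1 nuclei chosen without Slc5a12, they made up 23.2, 25.3, 28.2 and 25.4% of proximal nuclei and 7.43, 6.86, 14.1 and 9.53% of kept barcodes. How far the higher Slc5a12 level of the losartan libraries sets the share was not tested. After thinning to 2000 UMIs, which removes the advantage of deeper nuclei under a rule that counts UMIs, the shares were 9.57, 6.29, 17.5 and 13.6%. The share is relative, so fewer nuclei of other kinds and more S1 nuclei cannot be told apart. A larger share with losartan was not particular to S1 nuclei. S3-side nuclei were 765 of 9135 and 681 of 9540 kept barcodes in untreated libraries, and 1826 of 9433 and 1281 of 9851 in losartan libraries.

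**Figure D1:**
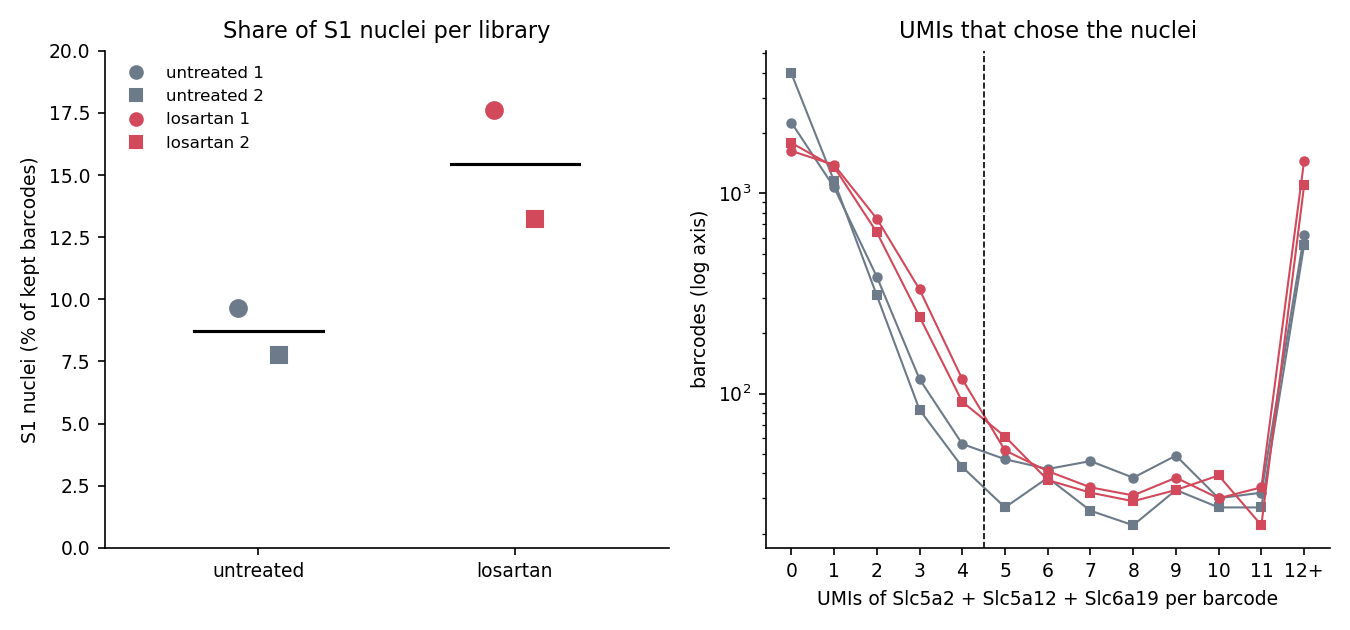
Left, S1 nuclei as a percentage of kept barcodes, 1 point per library with the group mean as a bar; the untreated libraries sit at 9.66 and 7.78% and the losartan libraries at 17.6 and 13.2%. Right, barcodes by their UMIs of Slc5a2, Slc5a12 and Slc6a19 on a log axis, with a dashed line at the limit of 5 UMIs, beside 43 to 118 barcodes per library at 4 UMIs and 27 to 61 at 5.

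The transcripts that set S1 nuclei apart were described against S3-side nuclei, with no test, since the rule chose both groups by expression. Of 4316 genes with at least 50 CPM in the higher group, 2674 had the same sign in all 4 libraries, 1386 higher and 1288 lower in S1 nuclei. Of these, 217 were over 2-fold higher in S1 nuclei and 267 over 2-fold higher in S3-side nuclei. The 12 genes at each end were taken, and 23 of these 24 are reported.

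Carriers and enzymes of amino acid handling stood among the S1-high genes. Slc7a8, a subunit of the neutral amino acid exchanger LAT2, stood at 465, 452, 348 and 431 CPM in S1 nuclei and at 21.3 to 36.3 in S3-side nuclei. Gatm, which makes the precursor of creatine from arginine and glycine, stood at 507, 368, 570 and 353 CPM against 22.2 to 41.8. Agpat9, an acyltransferase of glycerolipid synthesis, averaged 81.2 ± 16.8 against 5.64 CPM, and Tbxas1, thromboxane synthase, 132 ± 18.9 against 11.0. For both the S1 values and the S3-side values did not overlap. Tbxas1 also averaged 83.3 CPM in distal nuclei.

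Genes better known from nerve cells were also high in S1. Chrna4, a subunit of the nicotinic acetylcholine receptor, averaged 105 ± 22.0 CPM in S1 and 6.28 in S3-side nuclei. Ano3, a member of the anoctamin family of membrane proteins, averaged 81.3 ± 22.0 against 4.57, and the cytoskeletal protein gene Ablim3 54.2 ± 9.28 against 3.41. Also at this end were Clec2h, a lectin-like gene, at 127 ± 77.6 against 9.38 CPM, and 3 transcripts without a described product: Gm12962 (log2 ratio 5.08), 4921539H07Rik (4.78) and D630023F18Rik (4.44).

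At the other end stood transporters and secreted proteins of the late proximal tubule. Slc22a13, an organic anion carrier, averaged 3.67 CPM in S1 and 91.0 ± 33.1 in S3-side nuclei. Slc7a12, an amino acid carrier, averaged 25.3 against 507 ± 326 CPM, and Slco4c1, an organic anion carrier, 5.16 against 104 ± 34.0. Slc5a4a of the sodium-glucose family averaged 3.68 against 72.1 ± 7.57. Mep1b, a subunit of the brush border protease meprin, averaged 12.1 against 207 ± 59.3 CPM. The others were Mro, Fam107a, C8a, Uroc1, Ptn, Nxph1 and Serpina1f, with log2 ratios from -4.59 to -3.93. S1 levels of Slc22a13, Slco4c1, Mep1b and Ptn were below those of distal nuclei (4.82, 8.005, 16.1 and 5.57 CPM), so they are at the level of nuclei that should lack them.

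**Figure D2:**
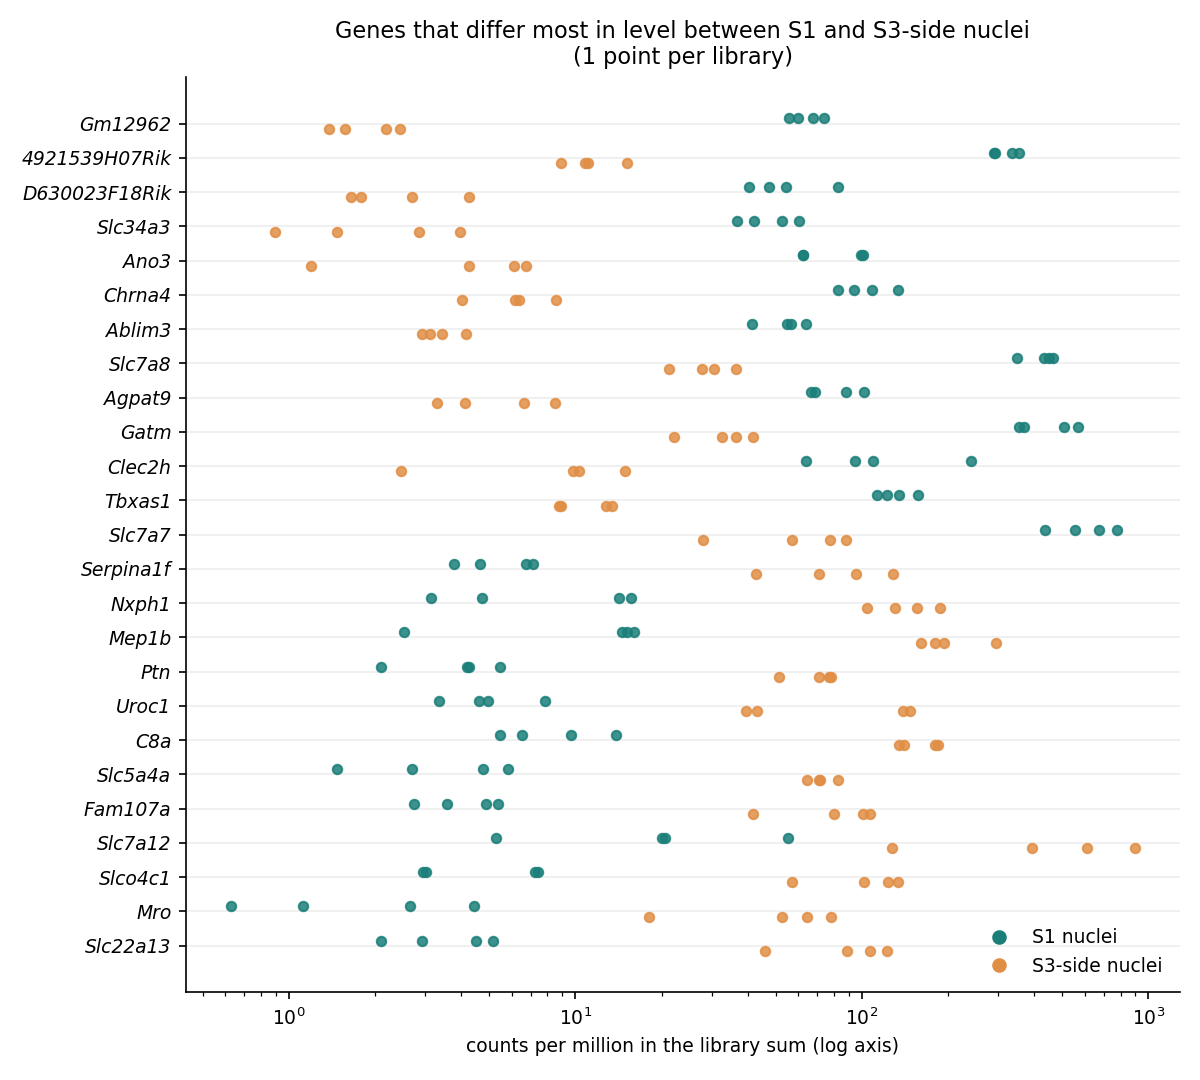
Plain CPM on a log axis for Slc34a3, Slc7a7 and the 23 genes reported by level, 1 point per library, in S1 nuclei (teal) and S3-side nuclei (orange). The libraries of the 2 groups of nuclei do not overlap for any of these genes; Gatm, for example, spans 353 to 570 CPM in S1 and 22.2 to 41.8 in S3-side nuclei.

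S1 nuclei also differed among themselves. The thinned nuclei of each library were ranked by their UMIs of the 3 S1 genes, and the lowest tercile (median of 3 to 5 UMIs) was set beside the highest tercile (median of 15 to 19). Of 4187 genes with at least 50 CPM, 1298 lay on the same side in all 4 libraries, 495 higher and 803 lower in the highest tercile. These counts are a description, since the ranking used expression of the same nuclei.

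Several genes high in S1 as a whole were higher in the highest tercile. Slc34a3 averaged 26.9 CPM in the lowest and 83.9 in the highest tercile, and Slc7a7 394 and 865. Clec2h stood at 61.7 and 220, Gatm at 289 and 628, and Slc7a8 at 280 and 604 CPM. Cpne4, a calcium-binding copine, stood at 17.3 and 60.7, and Acss1, mitochondrial acetyl-CoA synthetase, at 119 and 271. All of these were higher in 4 of 4 libraries. In the other direction, Slc5a8, which carries lactate and short fatty acids, stood at 116 in the lowest and 33.0 in the highest tercile. Slc6a18, a glycine carrier, stood at 217 and 68.6, Atp11a, a phospholipid flippase used as a marker of S3, at 386 and 130, and Glt1d1, a glycosyltransferase-like gene, at 68.3 and 14.1. Esr1, the estrogen receptor, stood at 53.2 and 16.8 CPM. These were lower in 4 of 4 libraries. The genes of this paragraph were chosen after their values were seen.

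The next comparison asks which transcripts of S1 nuclei differ between losartan-treated and untreated kidneys. Levels from here on are CPM after scaling the library sums by TMM factors, fold changes are log2 of losartan over untreated, and the test is the quasi-likelihood test of edgeR with Benjamini-Hochberg adjustment over all genes tested. At an adjusted p under 0.05, 0 of 13728 genes were called (0%). Before adjustment 1876 had p under 0.05 (13.7%), 829 higher with losartan (6.04%) and 1047 lower (7.63%). DESeq2 called 210 of 12017 genes (1.75%), 95 higher and 115 lower. Both losartan libraries lay beyond both untreated libraries for 6261 genes (45.6%), above for 22.3% and below for 23.4%; in plain CPM this split was 16.1% and 30.5%. Leaving out 1 library raised the edgeR calls to 42 without untreated library 1, 12 without untreated library 2, 4 without losartan library 1 and 187 without losartan library 2. No gene named for this comparison passed the main test, so the values below are differences of level, not calls.

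Among the 12 genes of smallest p that were higher with losartan, Kap came first. Kap, kidney androgen-regulated protein (chromosome 6, 133849851 to 133853762), stood at 602 and 496 CPM in untreated and 2054 and 1863 in losartan libraries (log2 1.83, SE 0.149, adjusted p = 0.0726 by edgeR). The groups did not overlap. In distal nuclei, however, Kap stood at 1016 and 576 against 2697 and 2522 CPM, at or above the S1 level in every library. Thinned nuclei held a Kap UMI in 67.4, 56.2, 95.7 and 95.2% of S1 and 71.9, 65.4, 97.5 and 96.5% of distal nuclei, so the S1 values are not above those of nuclei outside the proximal tubule. The difference between the losartan effects in S1 and distal nuclei was 0.06 on the log2 scale (SE 0.209, adjusted p = 0.972 by edgeR). How far free RNA sets the S1 value was not tested.

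Enzymes made up 6 of the 12. Cyp2d12, a cytochrome P450 (chromosome 15, 82555072 to 82560403), stood at 182 and 194 against 328 and 391 CPM (log2 0.94, adjusted p = 0.0859). This was above its distal level in every library, where plain CPM were 23.3, 11.4, 40.6 and 45.3. Thinned shares of nuclei with a Cyp2d12 UMI were 16.9, 15.4, 29.4 and 28.9% in S1 and 3.18, 1.86, 5.36 and 5.54% in distal nuclei. Its relatives Cyp2d9 (14.2 and 11.8 against 33.7 and 34.3 CPM) and Cyp2a4 (9.33 and 5.90 against 26.1 and 23.5) were lower in level, and Cyp2a4 stood below its distal level in all 4 libraries. Near-identical family members share reads, so single Cyp2d and Cyp2a genes are uncertain. Nudt19, a peroxisomal hydrolase of coenzyme A, stood at 68.9 and 75.2 against 159 and 134 CPM, Aspdh, an aspartate dehydrogenase-like gene, at 33.1 and 34.6 against 82.8 and 64.8, and the acetyltransferase-like Cml1 at 80.9 and 67.9 against 203 and 148. Nudt19, Cyp2a4 and Cml1, and below Pfkp and Grip1, overlap genes on the other strand, whose reads cannot be told apart here.

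Signalling and chromatin genes made up most of the rest. Acvr2b, the activin receptor type IIB, stood at 38.9 and 43.3 in untreated and 99.7 and 85.3 CPM in losartan libraries (log2 1.17, SE 0.137, adjusted p = 0.0803). Smad9, a transcription factor of bone morphogenetic protein signalling, stood at 2.89 and 2.85 against 12.8 and 11.9, and in distal nuclei at 0.530 to 3.33 plain CPM in the 4 libraries. Smarca2, an ATPase of the SWI/SNF chromatin remodeller, stood at 302 and 264 against 678 and 537 CPM. Gpc5, a glypican of the cell surface, stood at 30.2 and 35.2 against 93.4 and 72.4 CPM in S1, while distal nuclei had 286 and 328 against 214 and 242. Nxph1, neurexophilin 1, stood at 4.67 and 3.05 against 16.2 and 14.5. For each of these genes the losartan libraries were both higher.

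Among the 12 genes that were lower with losartan, Cdh6 and Itgb6 had the smallest p. Cdh6, a cadherin of the proximal tubule and its precursors (chromosome 15, 13028701 to 13173675), stood at 62.9 and 62.4 CPM in untreated and 7.72 and 13.04 in losartan libraries (log2 -2.61, SE 0.235, adjusted p = 0.0726 by edgeR). Distal nuclei had 54.6 and 51.8 against 34.2 and 37.0 CPM. The thinned share of nuclei with a Cdh6 UMI was 6.10, 7.14, 1.32 and 1.69% in S1 and 7.53, 7.78, 5.31 and 5.69% in distal nuclei, so S1 nuclei of the losartan libraries stood below distal nuclei. Itgb6, the beta-6 integrin subunit that with the alpha-v subunit activates latent TGF-beta (chromosome 2, 60598292 to 60722643), stood at 580.4 and 629 against 226 and 255 CPM (log2 -1.33, SE 0.122, adjusted p = 0.0726). Distal nuclei had 364 and 254 against 338 and 310 CPM, with overlapping groups. The log2 difference between the losartan effects in S1 and distal nuclei was -1.43 for Itgb6 (SE 0.231, adjusted p = 0.343) and -2.06 for Cdh6 (SE 0.211, adjusted p = 0.217), neither past the threshold.

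Promoters of a leading gene in each direction, Kap (minus strand, chr6:133853618-133853917) and Itgb6 (minus strand, chr2:60722554-60722853), are printed in the same way. The table lists 2 starts for Itgb6, of which 1 is shown. Capitals mark TATAAA.
Kap: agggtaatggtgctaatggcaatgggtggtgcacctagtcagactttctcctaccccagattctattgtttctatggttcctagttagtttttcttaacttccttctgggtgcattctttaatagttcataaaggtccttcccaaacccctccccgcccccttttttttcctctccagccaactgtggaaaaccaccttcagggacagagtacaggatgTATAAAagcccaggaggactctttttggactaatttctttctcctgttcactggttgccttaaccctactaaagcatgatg
Itgb6: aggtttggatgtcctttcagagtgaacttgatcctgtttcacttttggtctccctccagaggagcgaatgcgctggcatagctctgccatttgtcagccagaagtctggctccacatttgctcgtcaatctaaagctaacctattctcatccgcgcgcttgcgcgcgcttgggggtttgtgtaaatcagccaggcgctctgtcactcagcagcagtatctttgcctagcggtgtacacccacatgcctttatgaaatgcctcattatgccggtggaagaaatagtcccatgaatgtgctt
The match in Kap begins 31 bases before the start, and the Itgb6 window holds none of the 3 motifs on either strand.

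Several of the remaining lower genes are known from injured or dedifferentiated tubule. Spp1, osteopontin (chromosome 5, 104435118 to 104441050), stood at 436 and 506 CPM in untreated and 164 and 195 in losartan libraries (log2 -1.39, SE 0.140, adjusted p = 0.0803), and at 446 and 726 against 174 and 206 in distal nuclei, again at or above the S1 level in every library. Thinned shares with an Spp1 UMI were 50.9, 60.9, 28.7 and 33.1% in S1 and 50.8, 68.7, 28.0 and 31.1% in distal nuclei. Dcdc2a, a doublecortin-domain protein of cilia, stood at 42.4 and 34.6 against 6.60 and 10.6 CPM, and Anxa3, an annexin, at 20.9 and 20.9 against 6.15 and 6.09. Pfkp, the platelet form of phosphofructokinase, stood at 39.6 and 41.3 against 12.2 and 14.9.

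The last of the lower genes had roles in scaffolding, polarity and excitation. Cacnb4, the beta-4 subunit of voltage-gated calcium channels (chromosome 2, 52428320 to 52676831), stood at 173 and 200.1 against 62.9 and 79.2 CPM in S1. Distal nuclei had 1411 and 1453 against 1419 and 1374, with overlapping groups, and a thinned share with a Cacnb4 UMI of 72.8, 73.4, 78.5 and 74.8% where S1 nuclei had 19.95, 15.6, 7.94 and 9.36%. Grip1, a scaffold of receptor trafficking, stood at 319 and 303 against 153 and 168 CPM, Prickle2, a planar polarity protein, at 39.8 and 39.7 against 13.1 and 16.7, and Sntg1, a syntrophin, at 61.3 and 88.1 against 8.28 and 15.9. Gm26917, a noncoding transcript, stood at 769.98 and 901 against 381 and 387, and Ccdc178 at 7.9997 and 10.6 against 1.23 and 1.42. The 2 groups did not overlap for any of them. Adjusted p over the 24 genes named by smallest p ran from 0.0726 to 0.0859 by edgeR, and DESeq2 called all 24.

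**Figure D3:**
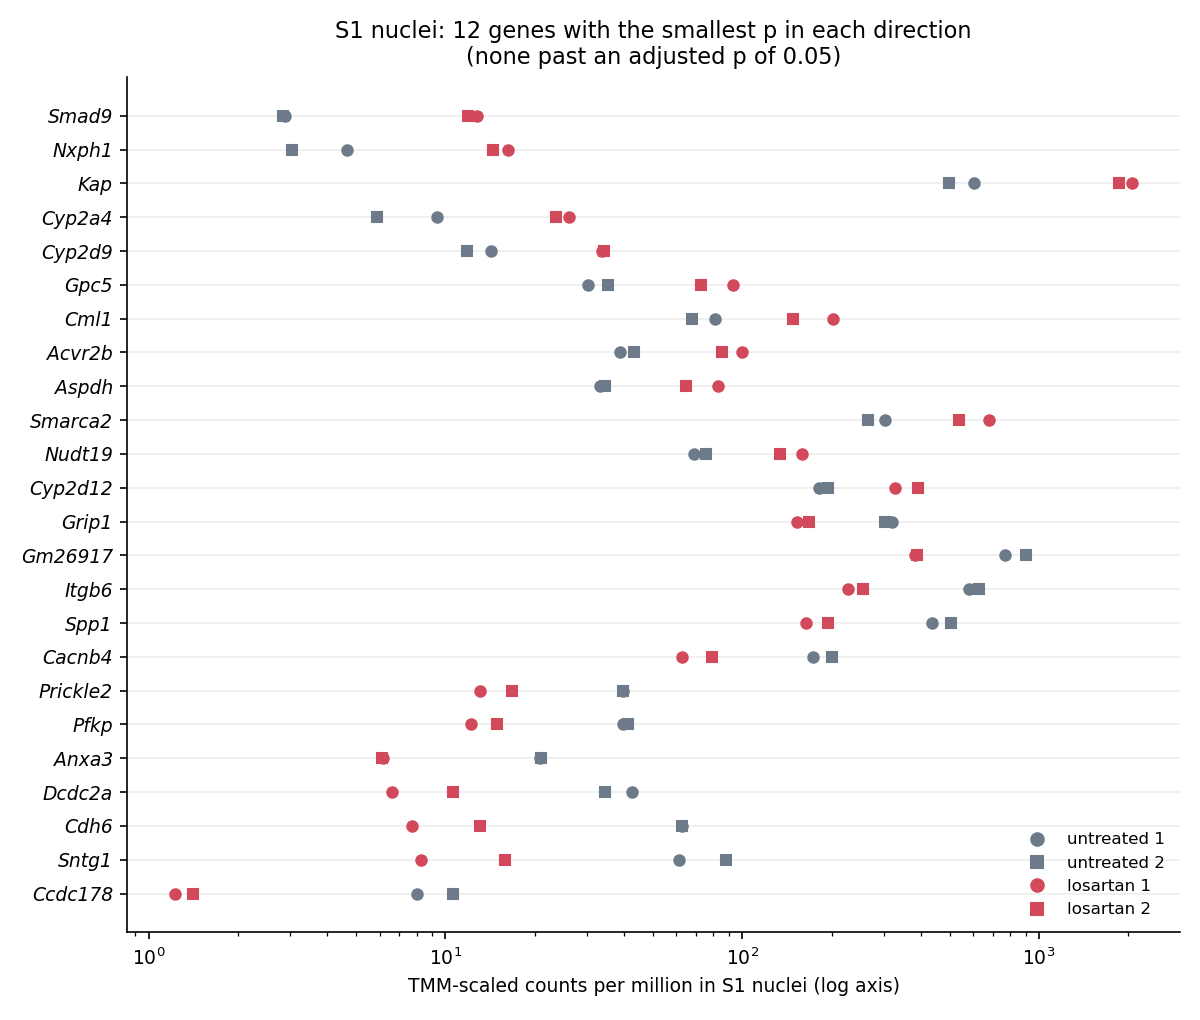
TMM-scaled CPM in S1 nuclei on a log axis for the 12 genes of smallest p in each direction, 1 point per library (grey untreated, red losartan, circles replicate 1 and squares replicate 2). The 2 groups do not overlap for any of the 24 genes and none passed an adjusted p of 0.05; Itgb6 stands at 580.4 and 629 in untreated and 226 and 255 in losartan libraries.

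Because free RNA can enter any droplet, S1 levels of these genes were set beside those of distal nuclei in the same library. Of the 12 higher genes, 8 stood above the distal level in both losartan libraries, and of the 12 lower genes 6 stood above it in both untreated libraries. The same was counted over tested genes with an unadjusted p under 0.05 that averaged at least 5 plain CPM in some group of nuclei. It held for 499 of 793 higher genes (62.9%) and 438 of 916 lower genes (47.8%). The losartan effect in S1 was also compared with that in distal nuclei over all genes, a comparison chosen after the levels of Kap and Spp1 had been seen. By edgeR, 0 of 15705 interactions were called (0%) and 1226 had p under 0.05 before adjustment (7.81%); no other tool was run on it. It gave 1001 calls without untreated library 1 and 12 without untreated library 2. The smallest p belonged to Cdh6, Gpc5 (difference 1.76), Cxcl10 (3.29) and Plau, the urokinase gene (-1.34), each at an adjusted p of 0.217. Plau stood at 63.3 and 43.5 against 19.7 and 22.7 CPM in S1, and at 95.9 and 84.3 against 84.8 and 96.7 in distal nuclei. Cxcl10, a chemokine, stood at 4.67 and 3.66 against 5.15 and 13.3 CPM in S1 and 15.8 and 27.5 against 2.48 and 7.196 in distal nuclei. Adamts16 (1.20), Ifitm10 (1.803) and Sgcd (1.797) on the higher side, and Cacnb4 (-1.38), Pdgfd (-1.05) and Gm12153 (-2.25) on the lower side, had adjusted p from 0.251 to 0.343.

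**Figure D4:**
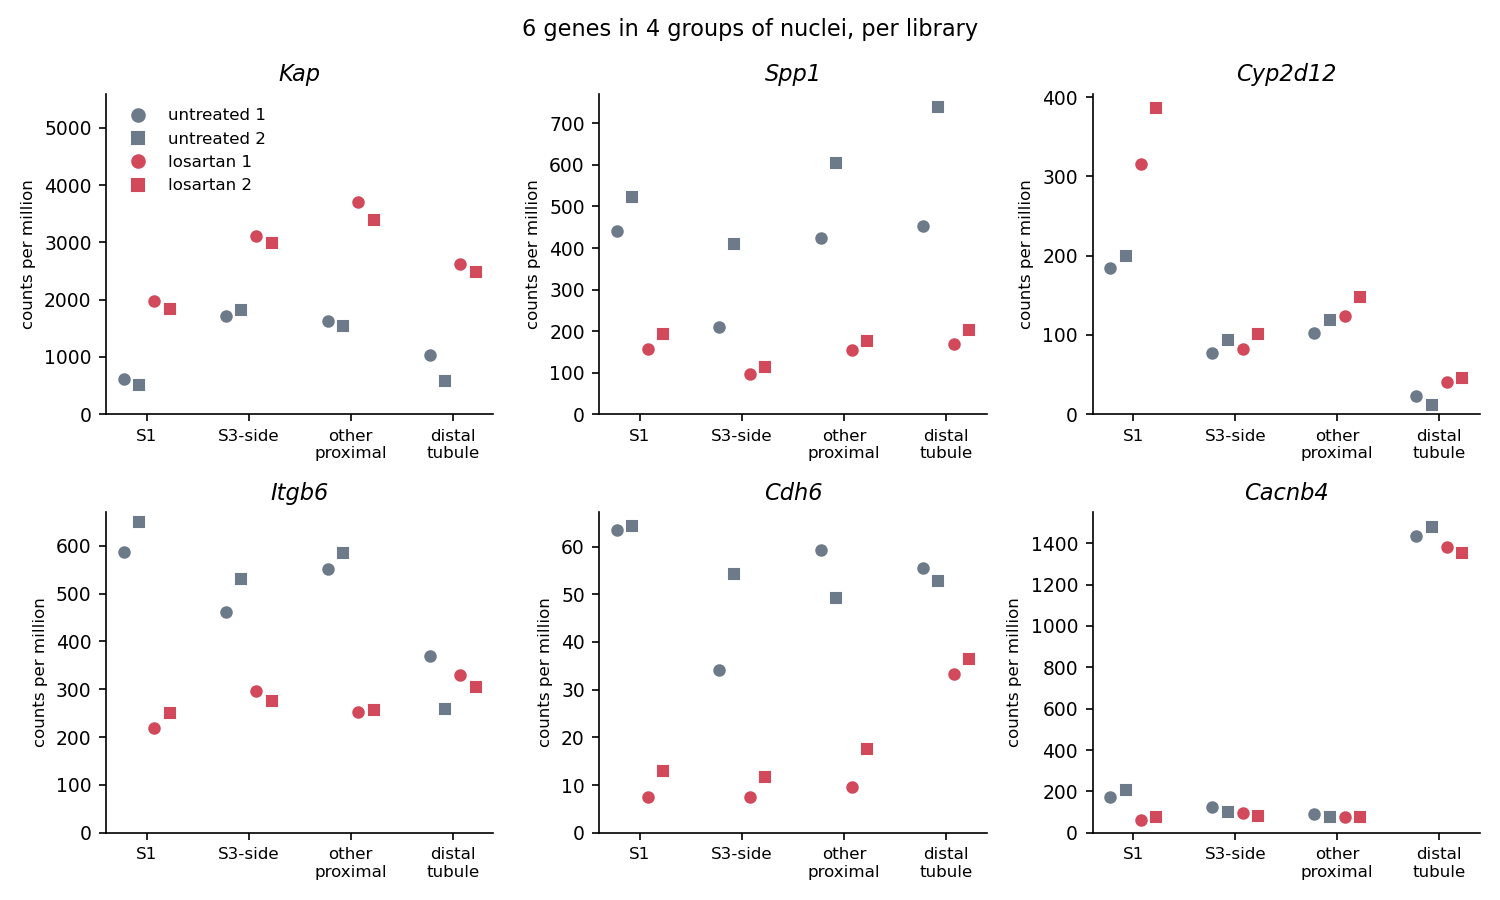
Plain CPM of 6 genes in 4 groups of nuclei, 1 point per library (grey untreated, red losartan, circles replicate 1 and squares replicate 2; distal tubule stands for thick ascending limb and distal convoluted tubule). Kap and Spp1 are as high in distal nuclei as in S1 nuclei, Cyp2d12 is highest in S1 nuclei, and the Itgb6 libraries are apart in the 3 proximal groups but overlap in distal nuclei.

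Gene lists show how the pathways of the segment stood. The median log2 change over all 13728 genes was -0.00222, against which each list median is read, and counts are genes at an unadjusted p under 0.05 (background 6.04% higher and 7.63% lower); 0 members of any list passed the adjusted threshold by edgeR. Xenobiotic and steroid enzymes had 21 of 41 tested members higher and 2 lower (median 0.58). Fmo1, a flavin monooxygenase, stood at 299 and 273 against 475 and 473 CPM, and Cyp2j13 at 460.2 and 460.0 against 838 and 697. Cyp2j5, among the list members of highest level, stood at 1160.4 and 1283 against 1331 and 1231, with overlapping groups. Of the 21 higher members, 18 stood above the distal level in both losartan libraries (85.7%), against 62.9% of all higher genes at the same p. Their fitted losartan change was larger in distal than in S1 nuclei for 15 of these 21 (71.4%), against 32.2% of all genes higher in S1 at the same p, with a median log2 difference of -0.47. The difference was -0.88 for Fmo1, -1.08 for Cyp2j13, -1.04 for Cyp2j5 and -0.48 for Cyp2d12, and none passed the test (adjusted p from 0.533 to 0.753 by edgeR). Markers of S3 in S1 nuclei and proximal markers in distal nuclei moved with these lists. The 8 markers of S3, which include the 4 S3 genes of the rule and Cyp4b1, summed to 1491 and 1505 against 2680 and 2008 plain CPM in S1 nuclei. Cyp4b1, itself in the androgen list below, makes up most of these sums. In S1 nuclei the 8 markers of any proximal segment summed to 13263 and 13237 against 15012 and 13739. The 5 markers of S2 summed there to 1194 and 931 against 1235 and 1200. In distal nuclei the markers of any proximal segment summed to 2201 and 1029 against 3492 and 2939, with none at 0. Their part in the values of these lists was not tested. Androgen-responsive transcripts of the mouse proximal tubule had 11 of 15 members higher and 0 lower (median 0.93). Of the 11, 8 stood above the distal level in both losartan libraries (72.7%), against 62.9% of all higher genes at the same p. Kap and Slco1a1 were higher members but not among those 8. Slco1a1, an organic anion carrier, stood at 11.3 and 10.2 against 77.7 and 35.3 CPM, with 6.53 and 3.50 against 76.8 and 39.6 plain CPM in distal nuclei. Cyp4b1, also a member of the fatty acid list, stood at 1049 and 1111 against 1894 and 1341. For 8 of the 11 higher members the change was larger in distal nuclei (median difference -0.80), with -1.24 for Slco1a1 and -1.23 for Cyp4b1 (adjusted p = 0.413 and 0.533 by edgeR). Several genes are in more than 1 of these lists.

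Fatty acid and peroxisomal oxidation had 15 of 41 members higher and 1 lower (median 0.25). For 9 of the 15 higher members the fitted losartan change was larger in distal than in S1 nuclei (60%, median log2 difference -0.31). Of all genes higher in S1 at the same p, 32.2% had the larger change in distal nuclei. Acot12, a thioesterase of acetyl-CoA, stood at 195 and 155 against 345 and 281 CPM. Without losartan library 1 the count of higher members was 9. Bdh1 stood at 4.89 and 4.07 against 11.9 and 10.5, below its distal level of 22.5 to 26.0. Acsm2, an acyl-CoA synthetase, stood at 1179 and 1438 against 1927 and 1612, while Ppara, the nuclear receptor of the pathway, stood at 1447 and 1228 against 1268 and 1512 with overlapping groups. Amino acid breakdown with ammonia and bicarbonate generation had 10 of 34 members higher and 3 lower (median 0.18), with 6 higher without losartan library 2 and 0 lower without untreated library 1. Miox, which opens inositol breakdown, stood at 363 and 371 against 659.7 and 567 CPM, and Ass1, argininosuccinate synthase, at 376 and 371 against 612 and 551. Hpd stood at 2.67 and 2.24 against 7.38 and 6.23, Dpyd, which breaks down pyrimidines, at 841 and 756 against 1102 and 1091, and Gldc of glycine cleavage at 819 and 481 against 791 and 956. For 7 of the 10 higher members of this list the fitted change was larger in distal nuclei (70%, median log2 difference -0.38).

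Transport genes were read in the same way. Carriers of carboxylates, urate and organic ions had 8 of 32 members higher and 1 lower (median 0.21). For 7 of the 8 higher members the fitted losartan change was larger in distal than in S1 nuclei (87.5%, median log2 difference -0.76). Of all genes higher in S1 at the same p, 32.2% had the larger change in distal nuclei. The count of higher members was 13 without untreated library 1, 5 without untreated library 2, and 4 without either losartan library. Slc22a28 stood at 346 and 322 against 689.9 and 515 CPM, Slc22a30 at 356 and 283 against 697 and 520.0, Slc47a1, an exporter of organic cations, at 835 and 835 against 1102 and 1018, and Slco1a6 at 929 and 801 against 1066 and 999. Abcc2, an exporter of conjugates, stood at 995 and 777 against 775 and 864. Sodium, bicarbonate and water transport had 5 of 21 higher and 1 lower (median 0.05; 3 higher without losartan library 1), with the membrane carbonic anhydrase Car14 at 44.2 and 50.4 against 85.5 and 77.9 and the water channel gene Aqp11 at 22.9 and 34.6 against 46.3 and 43.2. Slc4a4, which lets bicarbonate out at the blood side, stood at 2818 and 2999.6 against 2781 and 3166. For 3 of the 5 higher members of this list the fitted change was larger in distal nuclei (60%). Phosphate and sulfate transport had 3 of 12 higher and 1 lower (median 0.16), and here Slc34a3 stood at 41.8 and 35.6 against 62.6 and 53.3 CPM and Slc26a1, a sulfate exchanger, at 59.8 and 59.4 against 95.4 and 78.4. Slc34a1, the main phosphate carrier, stood at 5804 and 5403 against 6920.3 and 5719.6, with overlapping groups. Without losartan library 1, 0 members of this list were higher and its median was -0.11. Amino acid and peptide transport had 2 of 18 in each direction (median 0.03), with Slc6a18 at 166 and 180.2 against 111 and 135. Here 4 were higher without untreated library 1, 0 were higher without untreated library 2 (median -0.044), and 0 were higher or lower without losartan library 1 (median -0.050).

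Glucose handling had 1 of 13 members higher and 4 lower (median -0.07), besides Slc5a2, which the rule used. Slc5a10, a carrier of mannose and fructose, stood at 148 and 260.3 in untreated and 36.4 and 73.4 CPM in losartan libraries (log2 -1.90, SE 0.374, adjusted p = 0.118). Slc5a1, which encodes SGLT1, stood at 20.7 and 20.9 against 10.5 and 12.3, below its distal level of 46.3 to 61.2. The gluconeogenic genes Pck1 (1417 and 689 against 1069 and 1205 CPM) and G6pc (468 and 381 against 434 and 762) had overlapping groups. In this list 3 were higher without untreated library 1, where the median was 0.12, 2 were higher without untreated library 2 or losartan library 1, and 2 were lower without losartan library 2. Endocytosis and brush border genes had 0 of 27 higher and 2 lower (median -0.13). Both losartan libraries lay below both untreated libraries for 14 of the 27 and above for 5, against 23.4% and 22.3% of all genes. Of the 27 genes, Lrp2 stood at 1336 and 1378 against 1552 and 1429, the adaptor Dab2 at 3656 and 3234 against 4796 and 4001, and the protease gene Mep1a at 132 and 135 against 106 and 104. Without untreated library 1, 4 of these were higher and 3 lower, and without either losartan library 0 were lower. Nuclear-encoded oxidative phosphorylation had 0 of 39 in either direction (median 0.09), and all 13 mitochondrially encoded transcripts had overlapping groups, with mt-Co1 at 210.4 and 649 against 349 and 545. These last lists turned on single libraries: without untreated library 1, 5 nuclear-encoded and 8 mitochondrially encoded members were lower, and without untreated library 2, 17 and 12 were higher.

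Injury and repair genes formed the list of lowest median. Of 38 tested members, 25 were lower and 0 higher at an unadjusted p under 0.05 (median -1.15), and 28 had both losartan libraries below both untreated libraries, which 23.4% of all genes had. The count of lower members ran from 22 to 28 over the alternative settings. Havcr1, kidney injury molecule 1, stood at only 2.67 and 12.2 against 0.112 and 0.567 CPM, and Vcam1, an adhesion molecule, at 24.4 and 16.1 against 5.26 and 8.36. Sema5a, a semaphorin, stood at 317 and 297 against 167 and 192, and Itgb8, the other beta subunit that activates TGF-beta, at 359 and 311 against 239 and 315. Of the 25 lower members, 22 averaged at least 5 plain CPM in some group of nuclei. Of these 22, 9 stood above the distal level in both untreated libraries (40.9%), against 47.8% of all lower genes at the same p. The 9 were Anxa3, C3, Cdkn1a, Gdf15, Il34, Itgb6, Mdm2, Plk2 and Trp53inp1. The names Havcr1, Vcam1, Sema5a and those of the 9, apart from Anxa3 and Itgb6, were taken after the values were seen. Summed over 7 markers of injured proximal tubule, S1 nuclei held 791 and 730 against 434 and 544 plain CPM, and distal nuclei 841 and 676 against 530 and 647. Thinned S1 nuclei with UMIs of at least 2 of these 7 markers made up 23.1 and 22.1% in untreated and 11.9 and 12.96% in losartan libraries. Distal nuclei with them made up 24.4, 17.0, 10.7 and 15.7%. The part of free RNA in the S1 values was not tested.

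Interferon response and antigen presentation had 16 of 29 members lower and 0 higher (median -0.60), with 7 lower without losartan library 1. H2-K1, a class I antigen presenting gene, stood at 121 and 124 against 68.9 and 84.7 CPM, B2m, its partner, at 102 and 111 against 64.5 and 81.3, and Nlrc5, which drives class I genes, at 16.7 and 15.7 against 5.70 and 6.66. H2-Eb1, of class II, stood at 37.6 and 40.3 against 20.6 and 22.95, Ifit2 at 15.3 and 15.3 against 5.70 and 7.08, and Rnf213 at 109 and 105 against 68.2 and 81.6. Of the 16, 8 stood above the distal level in both untreated libraries (50%), near the 47.8% of all lower genes at the same p. Markers of macrophages and dendritic cells moved with this list: their 7 markers summed to 162 and 181 against 90.3 and 112 plain CPM in S1, and 222 and 219 against 117 and 148 in distal nuclei, with none at 0. Those of lymphocytes (6 markers) summed to 46.5 and 57.7 against 30.2 and 40.5. Their part in the list's values was not tested.

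TGF-beta and matrix genes had 4 of 25 members higher and 9 lower (median -0.30). Of the 9 lower, 7 stood above the distal level in both untreated libraries (77.8%), against 47.8% of all lower genes at the same p. Of the 4 higher, 3 stood above the distal level in both losartan libraries (75%), against 62.9% of all higher genes. These 3 were Id1, Id2 and Id3, named outside the naming rule. The fitted change of S1 minus distal nuclei was above 0 for all 4 higher (median 0.29) and below 0 for all 9 lower members (median -0.49). Over all genes at the same p, it was above 0 for 559 of 825 higher genes (median 0.19). It was below 0 for 973 of 1047 lower genes (92.9%, median -0.43), so these list counts are not particular to TGF-beta and matrix genes. Pdgfd, a platelet-derived growth factor, stood at 218 and 183 against 119 and 103 CPM. The basement membrane genes Col4a1 (206 and 177 against 78.7 and 114) and Lamb1 (162 and 139.9 against 92.6 and 98.3) were lower too, while Col4a3 stood at 787 and 937 against 928 and 1138 with overlapping groups. Smad3, a transcription factor of TGF-beta, stood at 197 and 181 against 152 and 155. Early response genes had 0 of 17 higher and 7 lower (median -0.25); Klf6 stood at 38.7 and 50.6 against 22.3 and 25.4, Btg2 at 48.0 and 29.7 against 18.0 and 16.6, and Atf3 at 4.89 and 5.08 against 0.783 and 0.425. In this list 3 members were higher and 4 lower without untreated library 1, and the lower members numbered 4 also without the nuclei richest in markers of other cell types.

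Of the renin-angiotensin system, 1 of 15 tested members was lower and 0 higher (median -0.01). Agt, angiotensinogen, stood at 6.44 and 7.32 in untreated and 1.90 and 4.11 CPM in losartan libraries (log2 -1.22, SE 0.417, adjusted p = 0.280), beside 7.08 and 4.24 against 1.68 and 3.59 plain CPM in distal nuclei. Agtr1a, the receptor that losartan blocks, named outside the naming rule, stood at 91.6 and 79.5 against 105 and 93.9 (log2 0.22). Nr3c2, the mineralocorticoid receptor, stood at 224 and 164 against 276 and 208, below its distal level of 704 to 847. None of these passed the test. Without untreated library 1, 3 members of the list were higher and 2 lower (median 0.087), and without untreated library 2, 1 was higher and 0 lower (median 0.12).

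The lists that remain had medians between -0.06 and 0.19. Proximal tubule transcription factors had 3 of 29 higher and 0 lower (median 0.06), among them Nr1h4, the bile acid receptor, at 726 and 798 against 1186 and 1061 CPM, and Hnf4a at 403 and 424 against 514 and 482. The higher members numbered 5 without untreated library 1, and 1 without untreated library 2 or losartan library 1. Corticosteroid and growth signals had 3 of 23 higher and 1 lower (median 0.11), with the growth hormone receptor Ghr at 2687 and 2619 against 3766 and 3851 and Erbb4 at 408 and 242 against 147 and 199; Erbb4 stood at 5707 to 6752 plain CPM in distal nuclei. Without losartan library 2, 6 were lower and the median was -0.0042; without untreated library 2, 5 were higher. Glutathione and NRF2 targets had 4 of 24 higher and 1 lower (median 0.05), with Gpx3 at 2295 and 1863 against 2182 and 2076, and 1 and 2 were higher without losartan library 1 and 2. Cholesterol and lipid synthesis had 1 of 27 higher and 5 lower (median -0.01), with Sqle at 24.7 and 18.1 against 13.8 and 10.5. In this list 1 was lower without losartan library 1, and 4 were higher and 3 lower without untreated library 1. Clock genes had 3 of 18 in each direction (median 0.03), with Npas2 at 24.7 and 23.8 against 5.59 and 11.1, Ciart at 19.8 and 16.3 against 37.9 and 29.9 and Tef at 304 and 317 against 419 and 423; without losartan library 1, 2 were higher and 2 lower. The hour of tissue collection is not given in the sources used here. Heat shock and unfolded protein genes had 2 of 19 higher and 1 lower (median -0.06), with 7 lower without untreated library 1, 5 without losartan library 2 and 4 higher without untreated library 2, and sex-linked transcripts 0 of 5 in either direction (median 0.19).

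**Figure D5:**
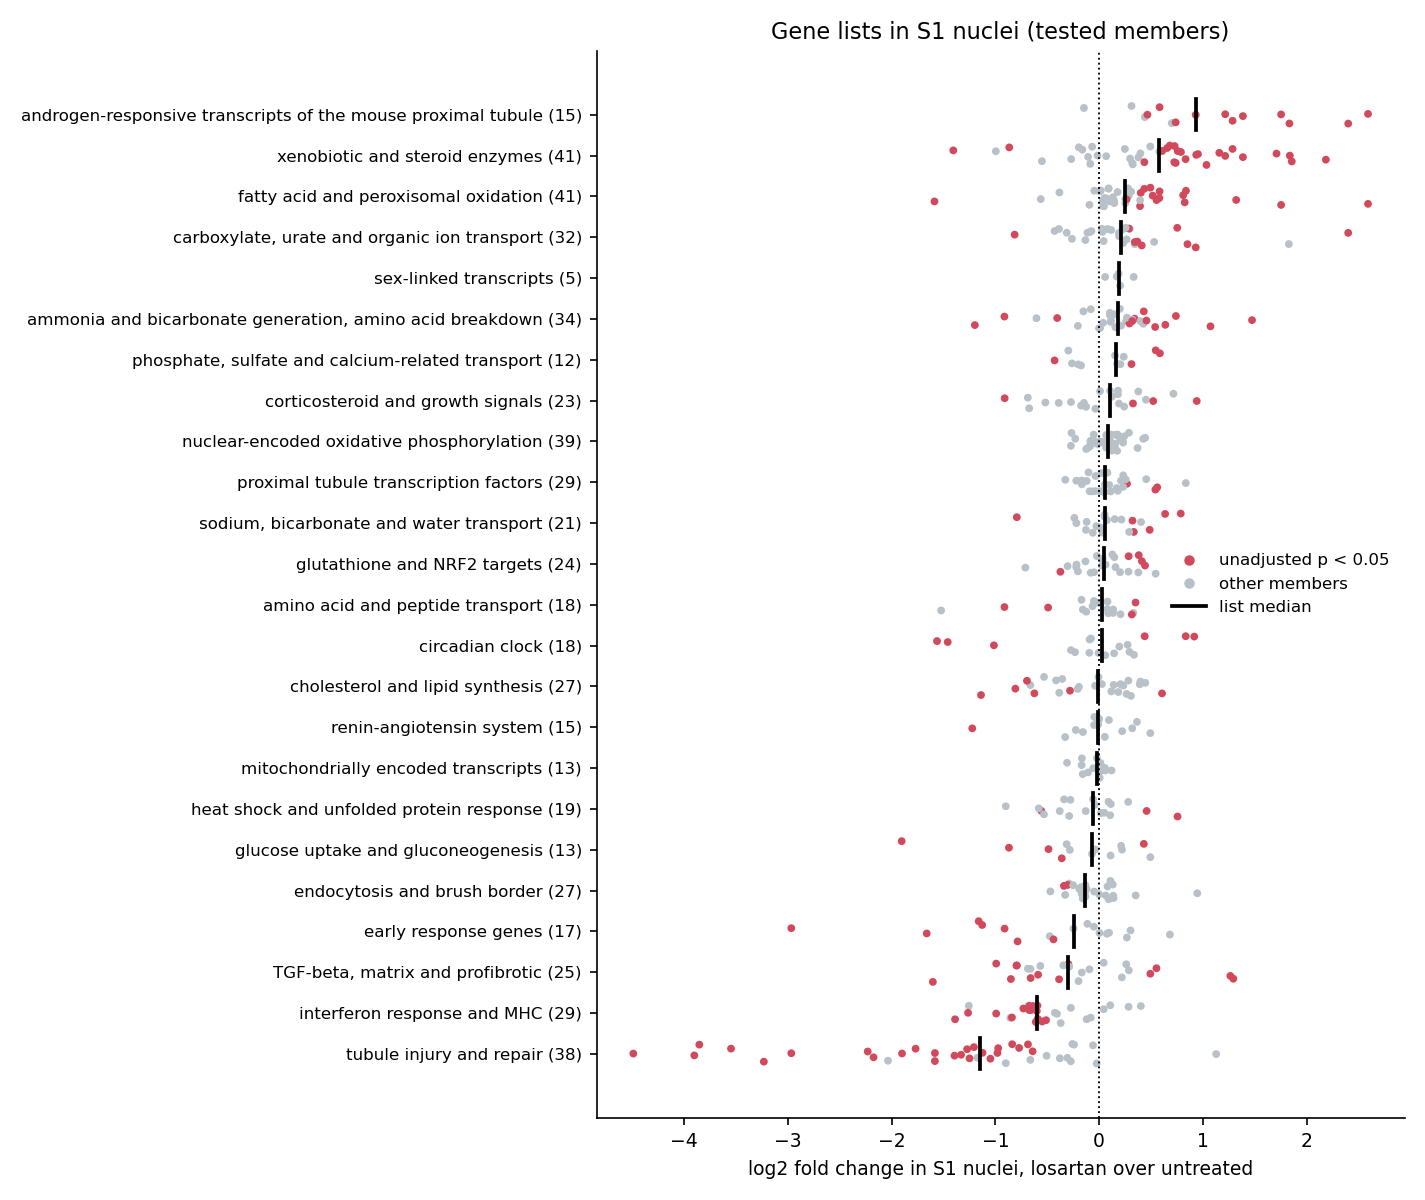
Log2 fold change in S1 nuclei, losartan over untreated, for the tested members of 24 gene lists (number tested in brackets), without the genes that chose the nuclei; red points have an unadjusted p under 0.05, black bars are list medians and the dotted line is the median of all genes. Injury and repair genes sit lowest (median -1.15) and androgen-responsive transcripts highest (median 0.93), and no gene passed an adjusted p of 0.05.

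Whether S1 nuclei differed from later proximal nuclei in their losartan effect was tested as the interaction of nuclear group and treatment, with library as a block. Against S3-side nuclei, edgeR called 5 of 14493 genes (0.0345%), 2 with a higher (0.0138%) and 3 with a lower effect in S1 (0.0207%). Htr4, a serotonin receptor, had 31.6 and 23.2 CPM in untreated and 1.36 and 0.568 in losartan libraries of S3-side nuclei, and at most 3.02 CPM in S1 nuclei (difference 6.92, SE 0.520, adjusted p = 0.0192). Rbfox1, a splicing regulator, stood at 92.4 and 51.5 against 157 and 94.6 in S1 and 173 and 84.1 against 55.6 and 50.3 in S3-side nuclei (difference 2.03, adjusted p = 0.0486). Csgalnact1, which starts chondroitin sulfate chains, stood at 82.9 and 115 against 116 and 107 in S1 and 61.1 and 69.5 against 272 and 199 in S3-side nuclei (difference -1.66). Pdgfd had opposite sides, with 218 and 183 against 119 and 103 in S1 and 76.4 and 73.3 against 160 and 103 in S3-side nuclei (difference -1.64). Unc5c, a netrin receptor, stood at 311 and 298 against 419 and 444 in S1 and 39.5 and 39.8 against 126 and 129 in S3-side nuclei (difference -1.19). The last 3 also had an adjusted p of 0.0486. The count was 537 without untreated library 1, 0 without losartan library 1 and 19 without losartan library 2. The next genes on either side, Cyp2a4 (1.72), Pid1 (1.12), RP23-474J16.2 (1.21), Nabp1 (-1.03) and Kcnh1 (-2.81), did not pass at an adjusted p of 0.0760.

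Against the other proximal nuclei, 74 of 14278 genes were called (0.518%), 40 with a higher (0.28%) and 34 with a lower effect in S1 (0.238%), among them the rule gene Slc7a13. Of the 39 remaining higher genes, 9 had the larger change in S1 and 30 in the other nuclei, and of the 34 lower genes 19 had the larger change in S1. Ano3, high in S1 as described above, stood at 61.6 and 96.6 against 64.7 and 103 CPM in S1 and at 45.9 and 52.3 against 1.85 and 5.23 in the other proximal nuclei (difference 3.90, SE 0.252, adjusted p = 8.74e-05). Epb41l3, a membrane skeleton protein, Cfap69, a cilium protein, and Cdh2, N-cadherin, had differences of 1.52, 0.86 and 1.84, and in each the other proximal nuclei had the lower values with losartan (22.5 and 33.0 against 65.8 and 50.8 untreated for Epb41l3). Nxph1 had a difference of 2.21, with other proximal nuclei at 59.6 and 49.7 against 39.1 and 56.8. Adjusted p for these 4 was 0.0115 to 0.0138.

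On the lower side, Plxna4, a semaphorin receptor, stood at 59.6 and 92.5 against 27.9 and 27.9 CPM in S1 and 43.6 and 65.8 against 49.5 and 47.9 in the other proximal nuclei (difference -1.28, adjusted p = 0.0039). Cacnb4 stood at 88.4 and 75.1 against 80.3 and 75.9 in the other proximal nuclei, where the S1 values given above were lower with losartan (difference -1.35, SE 0.166, adjusted p = 0.0116). Csgalnact1 (difference -0.91), Ctnnd2, a catenin (-2.46), and Fgf14, a growth factor homologue (-5.32), were called as well. Fgf14 and Ctnnd2 were low in S1, at 0.447 to 26.6 and 2.24 to 11.8 CPM. The number of calls was 127 without untreated library 1, 109 without untreated library 2, 4 without losartan library 1 and 84 without losartan library 2. The other proximal nuclei had at least 5 UMIs of Lrp2, Cubn and Slc34a1 and met neither segment rule, so they can hold S2 and injured nuclei. Among thinned S1 nuclei, 23.1, 22.1, 11.9 and 12.96% had UMIs of at least 2 of the 7 injury markers. In the other proximal nuclei the shares were 31.7, 25, 12.1 and 19.4%. How far the makeup of that group sets the differences was not tested.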

How the data were processed

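Single-nucleus libraries of 2 untreated and 2 losartan samples were used. The authors deposited filtered matrices of UMI counts per gene and barcode, made with Cell Ranger 5.0.0, per the file headers. The submitters' processing notes also name Bowtie 0.12.2 and mm10, with no role given. Of 27998 genes, 27645 were placed on GRCm38, and 56 symbols occur more than once.

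Barcodes were kept with at most 15000 UMIs and 10% mitochondrial UMIs. No doublet caller was run. The limits on UMIs and on Flt1, Slc12a1 and Slc12a3 stood in for one. Counts were summed per library and group of nuclei and tested with edgeR 4.0.16 (quasi-likelihood, TMM factors, filterByExpr, R 4.3.3), with library as a block in differences between groups of nuclei. DESeq2 1.42.0 was an alternative. Thinning used numpy 2.4.6, shares were tested with an exact permutation test, and plots were drawn with matplotlib 3.10.9. The edgeR step was tested on simulated data.

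Other alternatives were RLE factors, no filter, each library left out, a replicate block, at least 10 UMIs, a rule without Slc5a12, and leaving out the 10% of nuclei richest in other markers. The comparison with distal nuclei was added after values were seen. Named genes were the rule genes and S1 markers, the 12 of smallest p in each direction, up to 3 of smallest p and 3 of highest level in each of 24 lists, the 12 at each end by level among genes with at least 50 CPM, and 5 of smallest p in each direction for each difference between nuclei. A few genes that these rules name are not reported here. The members and lists were chosen with earlier results of these data known. Whether counting used strand is not given in the sources used here.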

Additional observations from a re-analysis of the deposited data

Results flagged for a closer look

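Differences of the losartan effect between S1 nuclei and another group of nuclei that passed an adjusted p of 0.05 by edgeR are listed here for the genes named above, as log2 of the effect in S1 over that in the other group. Against S3-side nuclei these were Htr4 (6.92), Rbfox1 (2.03), Csgalnact1 (-1.66), Pdgfd (-1.64) and Unc5c (-1.19). Against the other proximal nuclei they were Ano3 (3.90), Epb41l3 (1.52), Cfap69 (0.86), Cdh2 (1.84) and Nxph1 (2.21), with a higher effect in S1, and Plxna4 (-1.28), Fgf14 (-5.32), Cacnb4 (-1.35), Csgalnact1 (-0.91) and Ctnnd2 (-2.46), with a lower one. A higher effect in S1 need not be a change in S1. Of the 39 genes called higher against the other proximal nuclei, rule genes aside, 30 had the larger change in the other nuclei, Ano3 among them. Of the 34 called lower, 19 had the larger change in S1. All groups of nuclei come from the same 4 libraries.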

How the results depend on the processing

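The share of S1 nuclei stayed higher in losartan libraries in each alternative run, with differences of 4.52 to 8.90 percentage points when 1 library was left out. For losartan against untreated in S1 nuclei, edgeR called 0 genes with RLE factors, with at least 10 UMIs of the S1 genes, with Slc5a12 left out of the rule, and without the 10% of nuclei richest in markers of other cell types. It called 838 with no filter on low counts and 4 to 187 with 1 library left out, and DESeq2 called 210. The difference from S3-side nuclei gave 381 calls with no filter, 1 with S1 nuclei chosen without Slc5a12, 1 without the nuclei richest in other markers, and 0 to 537 with 1 library left out. Against the other proximal nuclei there were 487 calls with no filter, 119 without the nuclei richest in other markers, and 4 to 127 with 1 library left out. Against distal nuclei there were 29 with no filter, 1 with at least 10 UMIs, 1 without Slc5a12, and 0 to 1001 with 1 library left out. The cause was not tested in any of these.

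With the replicate number as a block, edgeR called 433 genes in S1 nuclei, 181 higher and 252 lower. The numbers are not shown to pair the samples: deviations from the group mean of untreated and losartan replicate 1 correlated at r = 0.188 over 13728 genes, and there are only 2 pairs. Of the 24 genes named by smallest p, the block, the fit with no filter on low counts and DESeq2 each called 24, the fits without untreated library 1 and 2 called 10 and 3, and those without losartan library 1 and 2 called 2 and 23.

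Signs differed under an alternative for 29 named genes, and edgeR called none of them in the comparison as reported. The lowest and highest log2 change with 1 library left out were -0.31 and 0.73 for Pck1, -0.085 and 0.30 for Slc43a2, -0.18 and 0.078 for Slc6a6, -0.56 and 0.052 for Slc13a1 and -0.27 and 0.088 for Abcc2. In the same way the values were -0.062 and 0.13 for Slc4a4, -0.053 and 0.31 for Rab11fip3, -0.074 and 0.19 for Ppara, -0.021 and 0.21 for Atp5b, -0.94 and 0.90 for mt-Nd3 and -0.79 and 1.05 for mt-Nd4l. Further ranges were -0.81 and 1.08 for mt-Atp6, -0.53 and 1.09 for mt-Co1, -0.67 and 1.08 for mt-Co3, -0.28 and 0.050 for Ggt1, -0.10 and 0.20 for Gpx3 and -0.087 and 0.087 for Lnpep. The range was -0.40 and 0.91 for Fkbp5, -0.13 and 0.18 for Glis3, -1.30 and 0.070 for Jun, -0.19 and 0.96 for Zfp36, -0.24 and 1.20 for Dusp1 and -0.16 and 0.47 for Hmgcs1. The last of these ranges were -0.18 and 0.16 for Abca1, -0.37 and 0.15 for Hlf, -0.039 and 0.18 for Rora, -0.76 and 0.20 for Hsp90b1, -0.084 and 0.34 for Herpud1 and -0.023 and 0.16 for Eif2s3y. With S1 nuclei chosen without Slc5a12, the sign also differed for Pck1 (-0.012), mt-Co3 (0.00052) and Abca1 (0.10). With at least 10 UMIs of the S1 genes, the sign also differed for Slc6a6 (0.0073) and Abca1 (0.082). With the replicate block, the sign also differed for mt-Atp6 (0.078) and mt-Co3 (0.15). With no filter on low counts, the sign also differed for Lnpep (0.013) and Abca1 (0.017). With DESeq2, the sign also differed for Lnpep (0.0028) and Abca1 (0.0066). With 2 libraries per group the number of libraries, more than the UMIs behind a sum, limits the precision. Genes below about 5 CPM rest on few UMIs per library, and leaving out a library leaves 1 sample in a group, which is then assumed to vary like the others.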
